A study of Homo sapiens with 70 samples.

Results

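NFE2L2, KEAP1 and 7 genes known as targets of the transcription factor NRF2 were followed through 2 hepatoma lines treated with an LXR agonist, a kinase inhibitor or both. The 9 genes are NFE2L2, KEAP1, GCLC, GCLM, TXNRD1, SRXN1, NQO1, HMOX1 and OSGIN1. They were picked by symbol, as 9 of the 20090 gene symbols in the authors' 6 deposited tables, and all 9 were found there. Each gene stands for the RefSeq transcript that the authors marked as its representative.

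NRF2, the protein of NFE2L2, is a basic leucine zipper factor that turns on genes of glutathione synthesis, thioredoxin reduction, quinone detoxification and haem breakdown. KEAP1 is the adaptor that hands NRF2 to a CUL3 ubiquitin ligase for degradation, and oxidants or electrophiles that modify cysteines of KEAP1 let NRF2 accumulate. NRF2 then pairs with a small MAF protein and binds antioxidant response elements, or AREs, short DNA motifs near its targets. This control acts largely on the protein, which was not measured here.

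The material was mRNA of Hep3B and Huh7, established human hepatocellular carcinoma lines, taken after 24 h of treatment. In each line the groups were 5 µM GW3965, 2 µM sorafenib, both drugs at these doses, and DMSO vehicle. GW3965 activates the liver X receptors (LXR), nuclear receptors for oxysterols, and sorafenib inhibits RAF and several receptor tyrosine kinases. Each Hep3B group held 9 libraries, while the Huh7 groups held 8 labelled GW3965, 9 labelled sorafenib, 9 with both drugs and 8 with DMSO. Nothing in the labels tells whether the libraries of 1 group are separate cultures, so the p-values measure the spread between libraries, which may be technical.

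What was analysed are the authors' edgeR comparisons of drug with DMSO within a line, which list for every transcript its average expression as log2 CPM (counts scaled to the library total), the log2 fold change, its p-value and its false discovery rate (FDR). They carry no value of a single library, and the sequencing depth is unknown. A gene counts as called at the authors' FDR under 0.05. Levels per group in CPM were solved from the mean and the fold change of each table. A line thus has 3 estimates of its DMSO level, whose medians over expressed genes differed by at most 5.72%. Approximate standard errors (SE) were derived from the authors' p-values, and intervals are approximate 95% intervals from them.

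The lines and the drug labels were checked first. All 8 hepatocyte lineage markers stood at 105 CPM or more in Hep3B DMSO cells and at 153 CPM or more in Huh7 DMSO cells. Of the 3 endothelial markers, 0 reached 2 CPM in either line, with a highest value of 0.320 CPM in Hep3B and 0.871 CPM in Huh7 DMSO cells. Of the 3 fibroblast markers, 2 reached 2 CPM in Hep3B (0.689 to 9.13 CPM, PDGFRB highest) and 3 in Huh7 (10.9 to 62.9 CPM, COL1A2 highest). Of the 4 leukocyte markers, 2 reached 2 CPM in Hep3B and 1 in Huh7, with CD68 highest at 11.8 CPM in Hep3B and 2.74 CPM in Huh7. The part of these markers in the results was not tested. In Huh7 the single-drug labels go against the genes that report the drugs. ABCG1, an LXR target, had a log2 fold change of 0.75 in the authors' deposited table labelled GW3965 and 3.82 in the one labelled sorafenib. DUSP6, which ERK signalling induces, stood at -1.70 in the authors' deposited Huh7 table labelled GW3965 and at -0.02 in the one labelled sorafenib. In Hep3B these genes stood at 5.99 and 0.33 with GW3965 and at 0.59 and -2.40 with sorafenib in the authors' deposited tables. The Huh7 single-drug groups are therefore called by their labels only, and no direction is assigned to a drug from them. In the Huh7 group with both drugs, ABCG1 stood at 4.37 and DUSP6 at -1.68 over DMSO in the authors' deposited table.

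The DNA in front of these genes shows where the ARE letters lie. A search for TGACNNNGC on both strands, from 250 bases before to 50 bases after each RefSeq start (GRCh38.p14), was made for the 8 members that the RefSeq promoter table holds, which are all but HMOX1. It found the letters at 3 of these 8 genes, GCLM, TXNRD1 and KEAP1, against 16.1% of the 27305 genes in that table. The sister form TGAGNNNGC, added after the data had been seen, was found at 6 of 8, against 21.6% of all genes. No stretch can match both forms on 1 strand, and GCLC and SRXN1 held neither in this window. The stretches below show the 120 bases before the start, 5′ to 3′ on the gene's strand. They come from 3 genes that rose with both drugs (GCLM, TXNRD1, OSGIN1), 1 that fell in each line (NQO1) and the repressor KEAP1. Not printed are start 1 of NFE2L2, which fell with both drugs in Huh7, and the upstream start of TXNRD1. They hold TGAGCCGGC at -16 to -8 and TGACTTCGC at -99 to -91, among other matches. Capitals mark every match to either form that lies wholly before the start.
GCLM (chr1:93909431-93909550, minus strand): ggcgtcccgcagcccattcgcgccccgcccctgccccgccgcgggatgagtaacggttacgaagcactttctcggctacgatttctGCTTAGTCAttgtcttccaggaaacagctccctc
TXNRD1 (downstream start, chr12:104286912-104287031, plus strand): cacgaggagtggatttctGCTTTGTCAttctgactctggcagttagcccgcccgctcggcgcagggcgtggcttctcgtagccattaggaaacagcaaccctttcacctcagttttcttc
KEAP1 (downstream start, chr19:10502772-10502891, minus strand): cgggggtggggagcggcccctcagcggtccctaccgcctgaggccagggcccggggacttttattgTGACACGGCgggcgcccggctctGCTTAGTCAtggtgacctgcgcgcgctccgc
OSGIN1 (chr16:83953120-83953239, plus strand): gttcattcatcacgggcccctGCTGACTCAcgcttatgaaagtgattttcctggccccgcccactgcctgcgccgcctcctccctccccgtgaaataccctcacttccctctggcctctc
NQO1 (chr16:69726561-69726680, minus strand): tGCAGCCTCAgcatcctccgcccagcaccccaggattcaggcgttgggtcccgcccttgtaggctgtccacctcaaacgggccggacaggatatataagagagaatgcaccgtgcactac

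GCLM and KEAP1 carry the same 9 letters, TGACTAAGC on the strand opposite to the gene. In GCLM they lie at bases -34 to -26, and in KEAP1 at -31 to -23. At the downstream start of TXNRD1 the letters read TGACAAAGC at -102 to -94, and those of OSGIN1 read TGAGTCAGC at -99 to -91, again on the opposite strand. NQO1 held only the sister form, TGAGGCTGC at -119 to -111. Among the 8478 genes of the promoter table with a mean of at least 2 CPM in Hep3B with both drugs, shares were higher. They were 19.6% for TGACNNNGC, 27.0% for TGAGNNNGC and 40.7% for either form. Since 33.7% of all genes hold 1 of the forms in such a window, a match here is a description of the letters, and elements farther away were not searched.

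**Figure D1:**
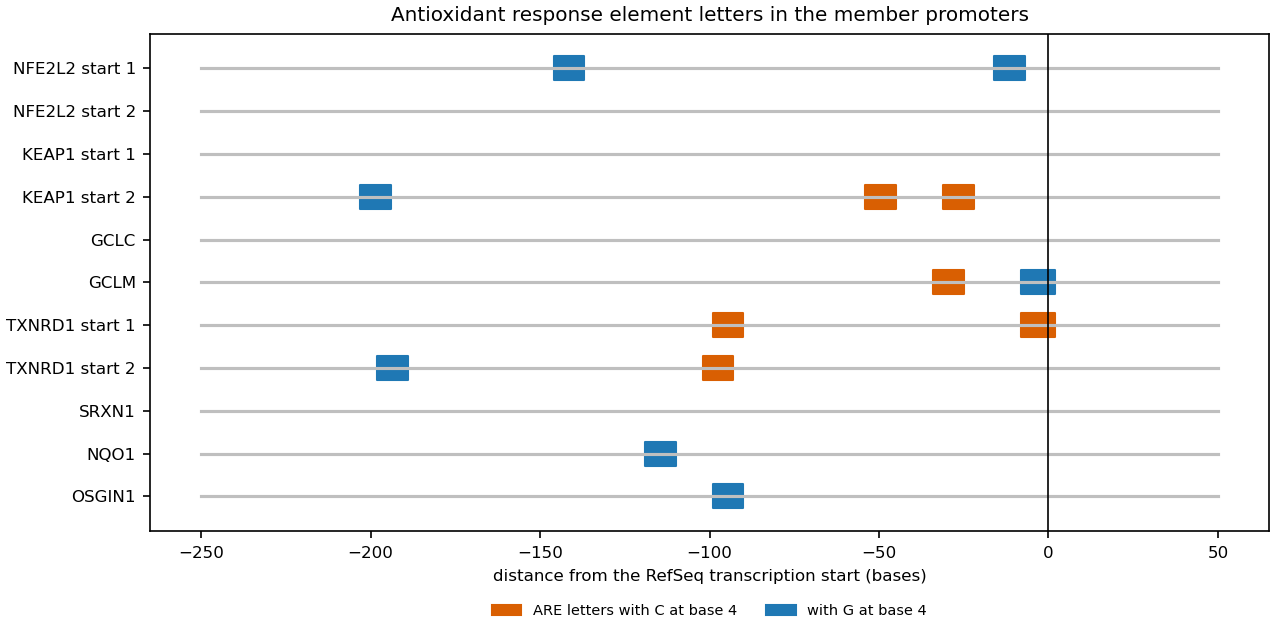
Matches to the ARE letters along the 11 RefSeq start windows of 8 genes, plotted as distance from the start in bases (250 before to 50 after). Orange boxes mark the form with C at base 4 and blue boxes the form with G there; GCLC, SRXN1, NFE2L2 start 2 and KEAP1 start 1 have no box.

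In DMSO cells the 9 genes spanned a wide range of levels. Per kilobase of transcript, NFE2L2 was the highest in each line, at 39.2 CPM per kb in Hep3B and 67.3 CPM per kb in Huh7. TXNRD1 came next, at 33.6 CPM per kb in Hep3B and 63.1 CPM per kb in Huh7. The lowest were NQO1 in Hep3B, at 2.35 CPM per kb, close to GCLM and OSGIN1 (2.42 CPM per kb each), and OSGIN1 in Huh7, at 2.94 CPM per kb. NQO1 differed most between the lines, with 6.49 to 6.93 CPM in Hep3B and 62.5 to 64.4 CPM in Huh7 DMSO cells over the 3 tables of each line. GCLM had 11.2 to 11.8 CPM in Hep3B and 48.9 to 50.7 CPM in Huh7 DMSO cells. HMOX1 was nearly level, at 18.2 to 19.3 CPM in Hep3B and 19.2 to 20.1 CPM in Huh7. The sources used here do not give how the lines were normalized relative to each other. The tables hold no comparison between untreated cells, so these levels have no test.

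**Figure D2:**
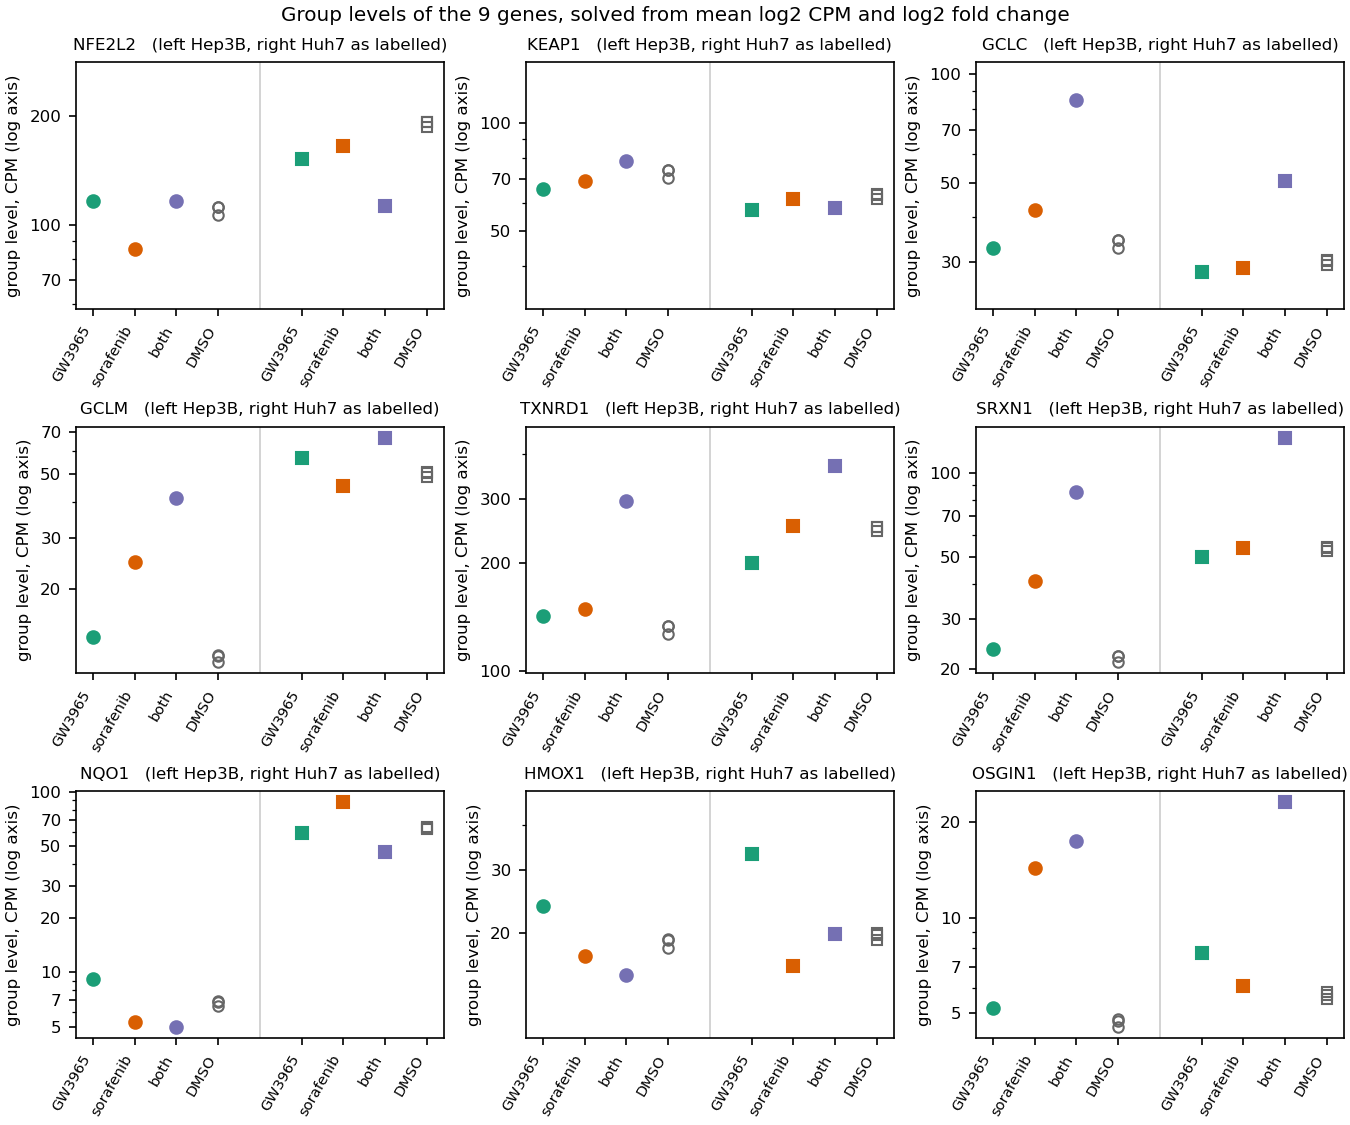
Level of each gene in CPM (log axis) by group, Hep3B at the left and Huh7, as labelled, at the right of each panel, solved from the authors' tables. Filled points are drug groups and open points the 3 estimates for DMSO; SRXN1 with both drugs reaches 84.9 CPM in Hep3B and 133 CPM in Huh7.

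With both drugs, 5 of the 9 genes rose in each line: GCLC, GCLM, TXNRD1, SRXN1 and OSGIN1. In Hep3B 5 of 9 were higher and 1 lower in the authors' deposited table, where 49.6% of all 20090 genes were called, 26.0% higher and 23.6% lower. In Huh7 5 of 9 were higher and 2 lower in the authors' deposited table, where 41.6% of all genes were called, 24.3% higher and 17.3% lower. All 9 had a mean of at least 2 CPM, as had only 11648 of the 20090 genes in Hep3B and 11491 in Huh7. The shares over all genes thus include many weakly expressed genes, and shares over expressed genes alone were not taken. The median log2 fold change of the 9 was 1.16 in Hep3B, against -0.06 over all genes, and 0.44 in Huh7, against 0.16 over all genes. NQO1 fell in each line, NFE2L2 fell in Huh7, and KEAP1 and HMOX1 were called in neither line.

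GCLC and GCLM encode the catalytic and the modifier subunit of glutamate-cysteine ligase, the rate-limiting enzyme of glutathione synthesis. GCLM had 41.2 CPM with both drugs in Hep3B, against 11.8 CPM in DMSO cells. Its log2 fold change in the authors' deposited table was 1.80 (approximate SE 0.09, edgeR FDR = 6.52e-104). In Huh7, GCLM stood at 66.5 CPM with both drugs, against 48.9 CPM with DMSO, and its log2 fold change in the authors' deposited table was 0.44 (SE 0.13, edgeR FDR = 0.00174). GCLC reached 85.0 CPM with both drugs in Hep3B, against 34.7 CPM with DMSO, and 50.4 CPM in Huh7, against 29.6 CPM with DMSO. Its log2 fold changes in the authors' deposited tables were 1.29 in Hep3B (SE 0.08, edgeR FDR = 2.15e-63) and 0.77 in Huh7 (SE 0.16, edgeR FDR = 3.57e-06). Both subunits thus rose in each line with both drugs.

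The thioredoxin arm followed. TXNRD1 is the cytosolic thioredoxin reductase, a selenoprotein, and SRXN1 is sulfiredoxin, which repairs over-oxidized peroxiredoxins. SRXN1 had 84.9 CPM with both drugs in Hep3B, against 22.3 CPM with DMSO, a 3.80-fold rise (log2 fold change 1.93, SE 0.08, edgeR FDR = 3.19e-147 in the authors' deposited table). In Huh7 it had 133 CPM with both drugs, against 52.6 CPM with DMSO, a 2.52-fold rise (log2 fold change 1.33, SE 0.24, edgeR FDR = 8.78e-08 in the authors' deposited table). TXNRD1, already abundant, had 297 CPM with both drugs in Hep3B, against 133 CPM with DMSO, and 370 CPM in Huh7, against 245 CPM with DMSO. In the authors' deposited tables its log2 fold changes were 1.16 in Hep3B (edgeR FDR = 2.57e-44) and 0.60 in Huh7 (edgeR FDR = 5.56e-04).

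OSGIN1, an oxidative stress induced growth inhibitor, rose in each line. It had 17.4 CPM with both drugs in Hep3B, against 4.78 CPM with DMSO (3.65-fold), and 23.1 CPM in Huh7, against 5.52 CPM with DMSO (4.19-fold). The log2 fold changes were 1.87 (SE 0.12, edgeR FDR = 1.36e-50) and 2.07 (SE 0.21, edgeR FDR = 2.38e-21) in the authors' deposited tables. The difference between the lines was -0.20, with an interval of -0.67 to 0.28.

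NQO1 and HMOX1, the targets most often used as reporters of NRF2, did not rise with both drugs. NQO1, a reductase that turns quinones into hydroquinones, had 5.00 CPM with both drugs in Hep3B, against 6.85 CPM with DMSO, and 46.6 CPM in Huh7, against 62.5 CPM with DMSO. It was lower in each of the authors' deposited tables, at -0.45 in Hep3B (SE 0.15, edgeR FDR = 0.00560) and -0.42 in Huh7 (SE 0.13, edgeR FDR = 0.00233). HMOX1, the inducible haem oxygenase, had 15.3 CPM with both drugs in Hep3B, against 19.1 CPM with DMSO, a log2 fold change of -0.32 that did not pass the threshold in the authors' deposited table (edgeR FDR = 0.0615). In Huh7 it had 19.8 CPM with both drugs, against 19.2 CPM with DMSO (interval of the log2 fold change -0.14 to 0.24).

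The transcripts of the 2 regulators moved apart from most of the targets. NFE2L2 had 116 CPM with both drugs in Hep3B, against 112 CPM with DMSO, and its log2 fold change of 0.05 was not called in the authors' deposited table (interval -0.11 to 0.21). In Huh7 it fell to 113 CPM with both drugs, against 187 CPM with DMSO (log2 fold change -0.73, SE 0.08, edgeR FDR = 5.04e-17 in the authors' deposited table). KEAP1 kept within narrow bounds, as its 6 log2 fold changes in the authors' deposited tables ran from -0.15 to 0.08 and none was called. Exons of NFE2L2, GCLC and NQO1 overlap exons of genes on the other strand in the GENCODE 29 annotation (2, 1 and 1 genes), and the sources used here do not give whether reads were counted by strand. Exons of NFE2L2, GCLC, SRXN1 and OSGIN1 also overlap exons of 1 gene each on the same strand. The part of these overlaps in the counts was not tested.

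**Figure D3:**
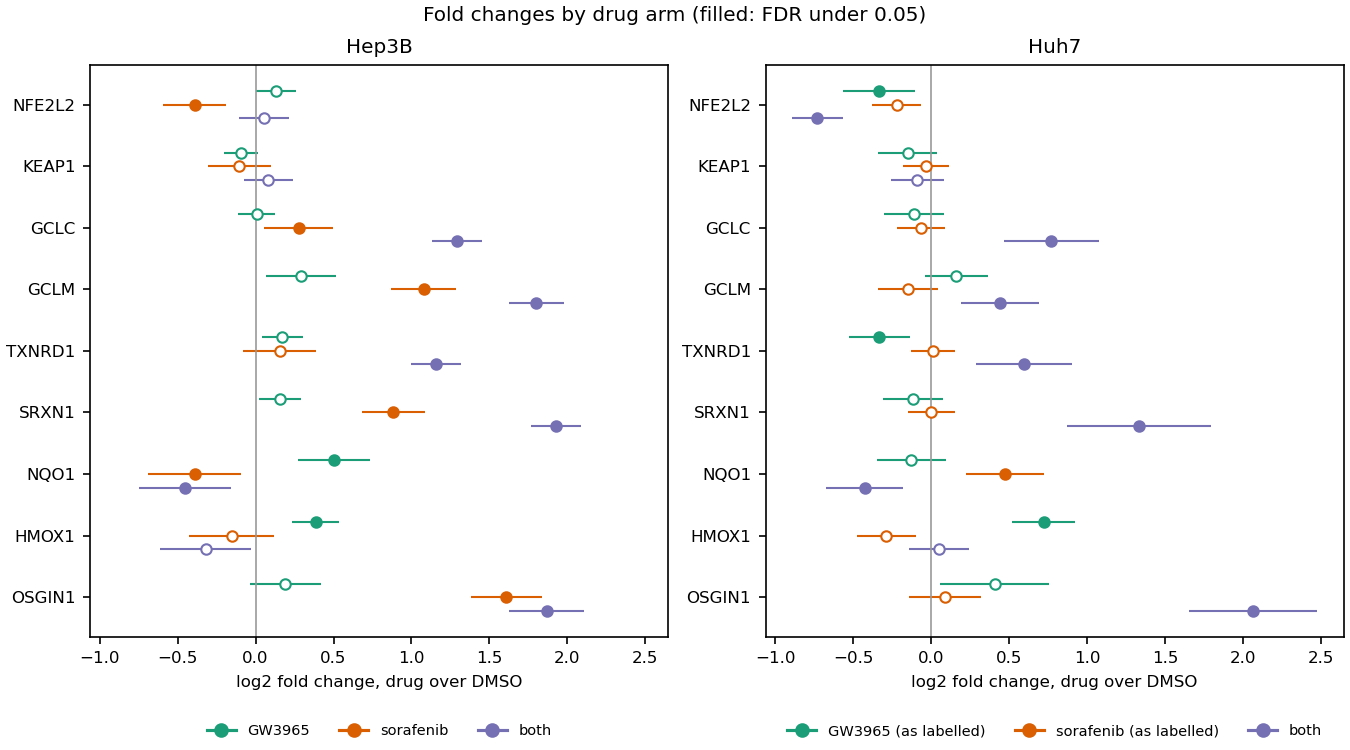
Log2 fold change of each gene over DMSO in the 3 drug arms of Hep3B (left) and of Huh7 as labelled (right), with bars of the approximate 95% interval and filled points at FDR under 0.05. SRXN1, GCLM and OSGIN1 lie at 1.80 or more with both drugs in Hep3B, and NQO1 lies below 0 with both drugs in each line.

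With single drugs the calls differed by drug. GW3965 in Hep3B raised 2 of 9 genes and lowered 0 in the authors' deposited table, where 6.79% of all genes were called, 4.51% higher and 2.28% lower. These were NQO1, with 9.21 CPM against 6.49 CPM with DMSO (log2 fold change 0.50, SE 0.12, edgeR FDR = 5.98e-04), and HMOX1, with 23.7 CPM against 18.2 CPM with DMSO (0.39, SE 0.08, edgeR FDR = 2.93e-05), in the authors' deposited table. Both are genes that did not rise with both drugs. The other 7 lay between -0.09 (KEAP1) and 0.29 (GCLM) with GW3965 in that authors' deposited table.

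Sorafenib in Hep3B raised 4 of 9 genes and lowered 2 in the authors' deposited table, where 34.7% of all genes were called, 17.3% higher and 17.4% lower. OSGIN1 had 14.3 CPM with sorafenib, against 4.70 CPM with DMSO (log2 fold change 1.61, edgeR FDR = 3.12e-45 in the authors' deposited table). GCLM had 24.9 CPM with sorafenib, against 11.8 CPM with DMSO (1.08, edgeR FDR = 3.06e-23), and SRXN1 had 41.1 CPM, against 22.3 CPM with DMSO (0.88, edgeR FDR = 3.66e-23), in the authors' deposited table. GCLC rose by 0.28 (edgeR FDR = 0.0407) while NFE2L2 fell by 0.39 (edgeR FDR = 2.03e-05) and NQO1 fell by 0.39 (edgeR FDR = 0.0300) in the same authors' deposited table. TXNRD1 stood at 0.16, with an interval of -0.08 to 0.39. At an FDR of 0.01 the calls of GCLC and NQO1 ended.

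In the Huh7 group labelled GW3965, 1 of 9 genes was higher and 2 were lower in the authors' deposited table, where 20.4% of all genes were called, 9.13% higher and 11.3% lower. HMOX1 had 33.1 CPM in that group, against 20.1 CPM with DMSO (log2 fold change 0.72, SE 0.10, edgeR FDR = 2.44e-10 in the authors' deposited table), its highest value in either line. TXNRD1 fell by 0.33 (edgeR FDR = 0.00281) and NFE2L2 fell by 0.33 (edgeR FDR = 0.0273) in the same authors' deposited table, and the NFE2L2 call ended at an FDR of 0.01. In the Huh7 group labelled sorafenib, 1 of 9 genes was called, NQO1, at 87.6 CPM against 63.2 CPM with DMSO (0.47, SE 0.13, edgeR FDR = 0.0137 in the authors' deposited table). This call also ended at 0.01, and 2.05% of all genes were called, 1.25% higher and 0.796% lower, in that authors' deposited table. Neither Huh7 single-drug table called GCLC, GCLM, SRXN1 or OSGIN1, whose largest value there was 0.41 for OSGIN1 under the label GW3965 (edgeR FDR = 0.0863 in the authors' deposited table).

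Whether both drugs did more than the single drugs was tested on the difference of log2 fold changes, over all genes with a mean of at least 2 CPM, with Benjamini-Hochberg adjustment. The tables of a line share their DMSO libraries, whose error is counted more than once, so these SE are too large. With both drugs against sorafenib alone in Hep3B, 5 of 9 genes were higher and 0 lower (of 11635 genes 31.1% were called, 16.6% higher and 14.5% lower). SRXN1 was higher by 1.04 (SE 0.13, adjusted p = 4.67e-13, approximate normal test), GCLC by 1.02, TXNRD1 by 1.00, GCLM by 0.72 and NFE2L2 by 0.44. OSGIN1 differed by 0.26 with an interval of -0.07 to 0.59, and NQO1 by -0.06 with an interval of -0.48 to 0.36.

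Against GW3965 alone in Hep3B, both drugs gave 5 higher genes and 2 lower ones (of 11533 genes 63.8% were called, 30.7% higher and 33.2% lower). The 2 lower genes were NQO1, by 0.96 on the log2 scale (difference -0.96, SE 0.19, adjusted p = 1.67e-06, approximate normal test), and HMOX1 (-0.71, SE 0.17, adjusted p = 7.98e-05, approximate normal test). NQO1 and HMOX1, called higher with GW3965, were thus lower with both drugs than with GW3965. In Huh7, both drugs against the group labelled GW3965 gave 4 higher and 2 lower genes (of 11496 genes 30.0% were called, 20.4% higher and 9.61% lower), and HMOX1 differed by -0.67 (adjusted p = 4.19e-05, approximate normal test). Against the Huh7 group labelled sorafenib, 6 were higher and 2 lower (of 11458 genes 47.1% were called, 29.1% higher and 18.0% lower), and NQO1 differed by -0.90 (adjusted p = 4.32e-06, approximate normal test). HMOX1 was called higher in that contrast, by 0.34 (adjusted p = 0.0330, approximate normal test), opposite to its direction against the group labelled GW3965. NQO1 differed from the group labelled GW3965 by -0.30 without a call (interval -0.63 to 0.03).

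The sum of the single-drug changes is the same in Huh7 whichever single-drug label is right. Both drugs exceeded that sum for SRXN1, GCLC and TXNRD1 in each line. In Hep3B the departures were 1.01 for GCLC (SE 0.15, adjusted p = 1.06e-08), 0.89 for SRXN1 (SE 0.15, adjusted p = 2.84e-07) and 0.83 for TXNRD1 (SE 0.16, adjusted p = 1.13e-05) by the approximate normal test. That makes 3 of 9 above the sum and 0 below, where 22.2% of 11561 genes were called, 10.8% above and 11.4% below. For TXNRD1 the single-drug changes in Hep3B sum to 0.33, and both drugs gave 1.16. GCLM departed by 0.43 in each line without a call (adjusted p = 0.0688 in Hep3B and 0.0892 in Huh7, approximate normal test).

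In Huh7 the departures were 1.57 for OSGIN1 (SE 0.30, adjusted p = 1.03e-05), 1.45 for SRXN1 (SE 0.27, adjusted p = 3.87e-06), 0.95 for GCLC (SE 0.20, adjusted p = 8.52e-05) and 0.91 for TXNRD1 (SE 0.20, adjusted p = 1.80e-04) by the approximate normal test. NQO1 fell short of the sum by 0.77 (departure -0.77, SE 0.21, adjusted p = 0.00355, approximate normal test). Of the 9, 4 were thus above and 1 below, where 21.2% of 11457 genes were called, 15.3% above and 5.90% below. The median departure of all tested Huh7 genes was 0.14, in the direction of the 4 genes above the sum and opposite to NQO1. OSGIN1 departed by 0.07 in Hep3B (interval -0.33 to 0.47), where sorafenib alone had raised it. The difference between the departures of the lines was not tested.

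**Figure D4:**
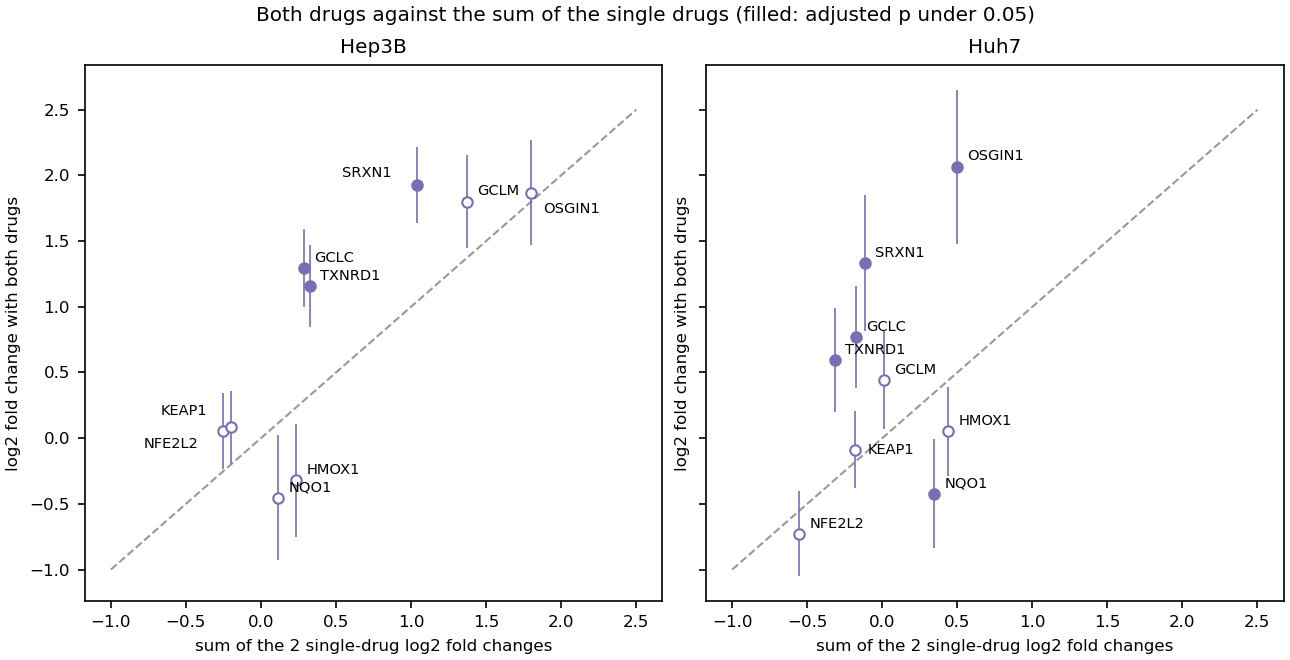
Log2 fold change with both drugs (y axis) against the sum of the 2 single-drug log2 fold changes (x axis) for the 9 genes in Hep3B (left) and Huh7 (right). The dashed line marks equality, bars show the approximate 95% interval of the departure from it, and filled points have an adjusted p under 0.05; GCLC, TXNRD1 and SRXN1 lie above the line in each panel.

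The response to both drugs was compared between the lines, which share no library. It was higher in Hep3B for 5 of 9 genes and lower for 0 (of 11511 genes 44.0% were called, 17.7% higher and 26.3% lower). GCLM differed most, by 1.36 (SE 0.16, adjusted p = 3.20e-16, approximate normal test), from a DMSO level that was lower in Hep3B. NFE2L2 differed by 0.78 (adjusted p = 4.25e-10, approximate normal test), with a fall in Huh7 and no call in Hep3B. SRXN1 (0.59, adjusted p = 0.0406), TXNRD1 (0.56, adjusted p = 0.00543) and GCLC (0.52, adjusted p = 0.00885) differed by less than GCLM in the same approximate normal test, and the SRXN1 call ended when p-values were adjusted over all representative transcripts (adjusted p = 0.0515). NQO1 differed by -0.03, with an interval of -0.41 to 0.35.

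The other genes of the pathway were taken from a list of 63 symbols in 8 roles, all of which the authors' tables hold. With both drugs 27 were higher and 19 lower in Hep3B, and 23 higher and 23 lower in Huh7, in what the authors' deposited tables list. Over all genes the shares called were 26.0% higher and 23.6% lower in Hep3B, and 24.3% higher and 17.3% lower in Huh7, and the counts of each role below stand beside these. Of the 63, 52 in Hep3B and 60 in Huh7 had a mean of at least 2 CPM, while the shares over all genes include many genes below it. Over the 63 the median was 0.15 in Hep3B and 0.06 in Huh7, beside -0.06 and 0.16 over all genes. GW3965 in Hep3B raised 12 and lowered 1 of the 63 (4.51% and 2.28% of all genes), and sorafenib raised 24 and lowered 11 (17.3% and 17.4%), in the authors' deposited tables. The Huh7 table labelled GW3965 held 13 higher and 6 lower (9.13% and 11.3% of all genes), and the one labelled sorafenib 7 higher and 1 lower (1.25% and 0.796%), among the values of the authors' deposited tables.

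Among 10 regulators, 8 were higher and 2 lower in Hep3B, and 7 higher and 1 lower in Huh7, with both drugs in the authors' deposited tables. The small MAF genes, whose proteins are the DNA-binding partners of NRF2, all rose in each line. MAFK rose by 1.06 in Hep3B and 1.76 in Huh7, MAFF by 0.99 and 1.29, and MAFG, chosen after its values were seen, by 0.86 and 1.23, in the authors' deposited tables. SQSTM1, the autophagy receptor p62 that binds KEAP1, rose by 0.79 in Hep3B and by 1.70 in Huh7 in the authors' deposited tables. Its response was lower in Hep3B by 0.91 on the log2 scale (difference -0.91, adjusted p = 2.05e-07, approximate normal test). RBX1, the RING subunit of the CUL3 ligase, fell by 1.18 in Hep3B and by 0.79 in Huh7 in the authors' deposited tables.

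In the role of glutathione supply and use, 2 of 12 genes were higher and 6 lower with both drugs in each line in the authors' deposited tables. SLC7A11, the cystine importer, was higher in all 6 of the authors' deposited tables, at 3.12 with both drugs in Hep3B and 2.29 in Huh7. It is also known as a target of the stress factor ATF4. The glutathione transferase genes GSTA4 (-1.40 in Hep3B and -0.82 in Huh7) and GSTM3 (-1.25 and -0.56) fell in the authors' deposited tables. These genes have close paralogs, so their values are uncertain where reads could be split among copies.

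PRDX1 and PRDX6 were the peroxiredoxin genes of the list, and neither followed TXNRD1 and SRXN1. Other peroxiredoxin genes were not examined. PRDX6, chosen after its values were seen, stood at -0.43 in Hep3B and -0.30 in Huh7 with both drugs in the authors' deposited tables. PRDX1, a peroxidase that thioredoxin reduces, fell by 1.25 in Hep3B and by 1.09 in Huh7 with both drugs in the authors' deposited tables. Of 6 genes in this role, 1 was higher in each line, SESN2 (2.40 in Hep3B and 2.45 in Huh7), while 3 were lower in Hep3B and 4 in Huh7, in the authors' deposited tables. SESN2 encodes a sestrin that stress factors including ATF4 are known to induce. Of the antioxidant enzyme genes outside the core, SOD1, SOD2 and CAT fell in each line and 0 of 4 rose, with SOD2 at -1.04 in Hep3B and CAT at -0.63 in Huh7, in the authors' deposited tables.

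NADPH, which feeds both the glutathione and the thioredoxin systems, is supplied by 6 genes of the list. With both drugs 3 were higher and 1 lower in Hep3B, and 3 higher and 2 lower in Huh7, in the authors' deposited tables. ME1, malic enzyme, rose by 1.71 in Hep3B and by 0.91 in Huh7, and PGD, of the pentose phosphate pathway, stood at 0.07 in Hep3B and rose by 0.92 in Huh7, in the authors' deposited tables. With GW3965 alone in Hep3B, 4 of the 6 rose and 0 fell, and the Huh7 table labelled sorafenib likewise held 4 higher and 0 lower, in the authors' deposited values. NQO1 was called higher in the same 2 single-drug tables. HMOX1 was called higher with GW3965 in Hep3B (0.39) but stood at -0.29, not called, under the Huh7 label sorafenib, in the authors' deposited tables. A link among these genes was not tested.

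Of 13 genes for enzymes of quinones, aldehydes and epoxides, 5 were higher and 2 lower in Hep3B and 4 higher and 6 lower in Huh7, with both drugs in the authors' deposited tables. In Hep3B this is near the 49.6% of all genes called. Only 6 of the 13 had a mean of at least 2 CPM in Hep3B, against 10 in Huh7. UGDH, which makes UDP-glucuronic acid, rose by 1.78 in Hep3B and by 0.72 in Huh7 in the authors' deposited tables. CBR1, a carbonyl reductase, went in opposite directions, at 0.43 in Hep3B and -0.86 in Huh7 in the authors' deposited tables (difference 1.28, adjusted p = 6.60e-16, approximate normal test). PIR rose by 0.84 in Hep3B and stood at -0.01 in Huh7 in the authors' deposited tables (difference 0.85, adjusted p = 3.61e-07, approximate normal test).

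In haem and iron handling, 4 of 7 genes were higher with both drugs in each line, with 2 lower in Hep3B and 1 in Huh7, in the authors' deposited tables. The haem transporter gene SLC48A1 rose by 1.38 in each line, and the biliverdin reductase gene BLVRB by 0.57 in Hep3B and 0.97 in Huh7, in the authors' deposited tables. Among efflux pumps, 4 of 5 were higher in Hep3B and 2 of 5 in Huh7, and 0 were lower, in the authors' deposited tables. ABCG2, a multidrug transporter, rose by 1.94 in Hep3B and stood at 0.20 in Huh7 in the authors' deposited tables (difference 1.74, adjusted p = 3.43e-16, approximate normal test).

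**Figure D5:**
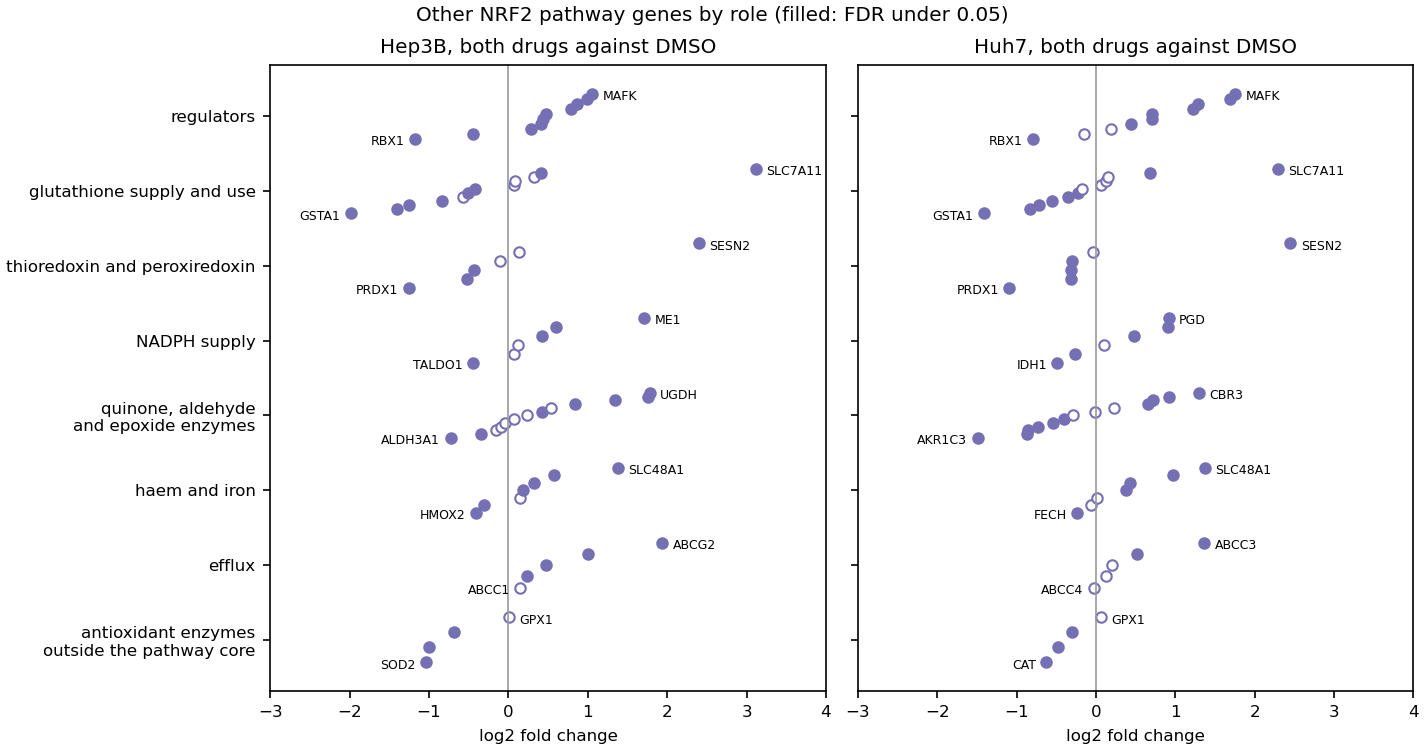
Log2 fold change with both drugs over DMSO for the 63 other pathway genes by role, in Hep3B (left) and Huh7 (right), filled at FDR under 0.05, with the lowest and highest gene of each role named. SLC7A11 and SESN2 lie above 2 in each line, and PRDX1 lies below -1.

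Likeness of pattern was measured as the root mean square difference of the log2 fold changes over the 6 comparisons, among 11443 other genes with a mean of at least 2 CPM. For NQO1 the nearest genes were MGST1 (0.13), ACP2 (0.13) and LIPA (0.14). OSGIN1 lay nearest to GAS5 (0.16), SNHG8 (0.21) and WDR66 (0.22). The nearest to SRXN1 were TRIM36 (0.14), CNNM4 (0.17) and POLR3C (0.18), and to TXNRD1 they were DIEXF (0.07), ABLIM1 (0.11) and RABGGTB (0.11). HMOX1 had KCNQ1OT1 (0.17), PMP22 (0.21) and SLC47A1 (0.21) as its nearest, and no member was among the 3 nearest genes of another.

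The choice of transcript left the calls against DMSO as they were. The 9 genes have 19 RefSeq transcripts in the tables, and 5 of them have several. Over the transcripts of a gene the log2 fold change differed by at most 0.02 in any of the authors' deposited tables, and the call differed in 0 of 54 gene and comparison pairs. Transcripts of a gene share most of their exons, so they are not separate measurements. Each of the 9 had a nonzero count in all 70 libraries.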

How the data were processed

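Per the labels' protocols, poly-A RNA was isolated from Hep3B and Huh7 cells and sequenced. Per the submitters' processing notes, edgeR and the builds hg19 and GRCh37 were used; the sources used here give no version, aligner or counting method. The deposited log2 values are, per the file headers, an average and a fold change of 32321 transcripts. The average was read as log2 CPM because its linear values sum to 1.00e+06 to 1.01e+06 per table. Each deposited p-value came with an FDR, and Benjamini-Hochberg adjustment over all rows gave the same FDR. Reading the fold as drug over DMSO, the DMSO level implied by the tables of a line differed with an SD of 0.00382 to 0.0150 (log2), against 0.339 to 0.694 for the reverse reading. Group levels assumed that 2 to the power of the mean log2 CPM is the mean CPM over the libraries of both groups.

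The SE of a log2 fold change was its size over the normal score of its p-value, with the median over genes of similar expression (20 bins) as its floor, which was also used where p exceeded 0.5. Differences were tested against the normal distribution in scipy 1.17.1 over genes with a mean of at least 2 CPM. Named genes were the 9 members, up to 3 called genes of each role with the largest change in a both-drug table and a mean of at least 2 CPM, the check genes of the drugs, and the 3 genes nearest to a member in pattern. A check gene of the lines is not reported here. The members and lists were chosen with earlier results of these data known.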

Additional observations from a re-analysis of the deposited data

Results flagged for a closer look

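The response to both drugs differed between Hep3B and Huh7 for 5 of the 9 genes, by the approximate normal test of the difference itself. Over all 11511 genes tested 44.0% differed, 17.7% higher in Hep3B and 26.3% lower. The difference in log2 fold change, Hep3B minus Huh7, was 1.36 for GCLM, 0.78 for NFE2L2, 0.59 for SRXN1, 0.56 for TXNRD1 and 0.52 for GCLC. The first was a larger rise in Hep3B, the NFE2L2 value goes with a fall in Huh7, and the other 3 genes rose in each line. The SRXN1 call ended when p-values were adjusted over all representative transcripts. Depth and batch were not used here, and their part in the differences was not tested.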

How the results depend on the processing

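The 9 genes kept the number of calls in each of the 6 comparisons with DMSO within 1.5 times when the adjustment covered the representative transcripts only, when the median of expressed genes was subtracted from the fold changes (which leaves the p-values as they are) and when the transcript with the highest mean log2 CPM was used. At an FDR of 0.01 the count in the Huh7 table labelled sorafenib was 0 in place of 1 by the authors' edgeR test (3 of 9 at an unadjusted p under 0.05), and that of the other pathway genes was 5 in place of 8. The other counts of these genes stayed within 1.5 times at that FDR and with a minimum mean of 2 CPM. At an FDR of 0.01, 4 calls of the 9 genes against DMSO ended. They were GCLC and NQO1 with sorafenib in Hep3B, NFE2L2 under the Huh7 label GW3965 and NQO1 under the Huh7 label sorafenib. The counts with sorafenib in Hep3B and under the Huh7 label GW3965 thus lay at the limit of 1.5 times. The counts of the 7 contrasts between tables stayed within 1.5 times under an adjusted p of 0.01, SE from the p-value alone and adjustment over all representative transcripts. Among single genes, 394 values kept direction and call, 8 lost a call, 2 gained one and 1, HMOX1 with both drugs in Huh7, changed sign without being called. These values count each gene once per comparison and setting. Under the subtraction and the change of transcript a call could hardly end, so the 394 is not a measure of robustness. The 2 gains, with SE from the p-value alone, were KEAP1 for both drugs against GW3965 in Hep3B (adjusted p = 0.0420) and the departure of HMOX1 in Hep3B (adjusted p = 0.0463). No paired analysis was possible because the tables hold no values of single libraries, and for the same reason leaving out each replicate and a quasi-likelihood test were not run. Depth per library is unknown, which limits what can be said of low genes such as NQO1 in Hep3B.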
